A study of Mus musculus with 10 samples.

Results

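The macrophage state genes are 40 genes, listed by symbol, that mark macrophages or set apart their states, and they were looked up by Ensembl identifier among the 25700 genes counted in regenerating mouse muscle. Of the 40 genes, 38 had 10 or more counts in at least 5 of the 10 libraries, and *Marco* and *Timd4* did not. They fall into markers of macrophage identity, inflammatory and monocyte genes, genes of resident macrophages with scavenger receptors, alternative activation genes, TAM receptor genes and lipid genes.

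Tibialis anterior (TA) muscle was taken from 12-week-old male C57BL/6 mice on day 6 after an intramuscular injection of cardiotoxin (CTX), a snake venom toxin that destroys muscle fibers and starts regeneration. The 5 Pax7Cre mice, labelled wild type, carried Cre under the Pax7 promoter with no floxed allele named in their labels, and the 5 miR-501KO mice, labelled miR-501 −/− and described in the series as Pax7CremiR-501fl/Y, carried the same Cre and a floxed miR-501 on their X chromosome. Both groups thus shared the Cre, the toxin, the sex, the age and the time point, and uninjured muscle and mice without Cre were not analysed here. The Pax7 promoter is active in muscle stem cells, and their progeny inherit the deletion. Macrophages are thus not the cells this Cre is known to target. The labels themselves do not name the deletion as restricted to the muscle lineage. *Mir501* was not analysed here, so the genotype labels were not checked against it.

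Macrophages clear the debris of dying fibers and then feed signals to muscle stem cells and fibroblasts. Monocytes that enter the injured muscle first carry high Ly6C and make inflammatory mediators such as TNF and nitric oxide, and later give rise to cells with low Ly6C that take up lipid and support growth of new fibers. Resident macrophages, marked by LYVE1, FOLR2, TIM4 and C-type lectins, occupy the tissue before injury, while lipid-associated macrophages with TREM2, GPNMB and osteopontin are found where cells take up dead tissue.

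The libraries held between 18609222 and 24753258 counts. Values are given as CPM, read counts relative to the library total after scaling by TMM factors, with mice in the order of their numbers and the mean ± SD of 5 mice. Fold changes are log2 values of miR-501KO over Pax7Cre from edgeR's quasi-likelihood test, fitted on 14410 genes, and positions are those of GENCODE M21 on GRCm38. In whole muscle, fewer macrophages and less RNA per macrophage cannot be told apart. The p-values set the difference between the genotypes against the variation between these mice.

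Across the 38 tested genes, 17 were higher and 21 were lower in miR-501KO mice, with a median log2 fold change of −0.016, against −0.0042 for all 14410 genes. The median of the 38 lay between −0.056 and 0.056 when 1 mouse was left out, so that its sign depended on single mice. In edgeR's quasi-likelihood test with Benjamini-Hochberg adjustment, 0 of the 38 genes passed an adjusted p of 0.05, and 0% of all genes did, with a smallest adjusted p of 1.00. At an unadjusted p under 0.05, 1 of the 38 genes, *Clec10a*, was lower, against 0.666% of all genes, and 0 were higher, against 0.382%. DESeq2's Wald test likewise gave 0 genes at an adjusted p of 0.05, and at an unadjusted p it gave 2 lower macrophage genes, *Clec10a* and *Gas6*, against 98 lower genes, 0.680%, of all 14410. In 0 of the 38 genes did the groups fail to overlap, against 0.139% of all genes. The 95% interval of the fold change lay between −1 and 1 for 36 of the 38 genes, and that of *Retnla* reached past these bounds.

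**Figure D1:**
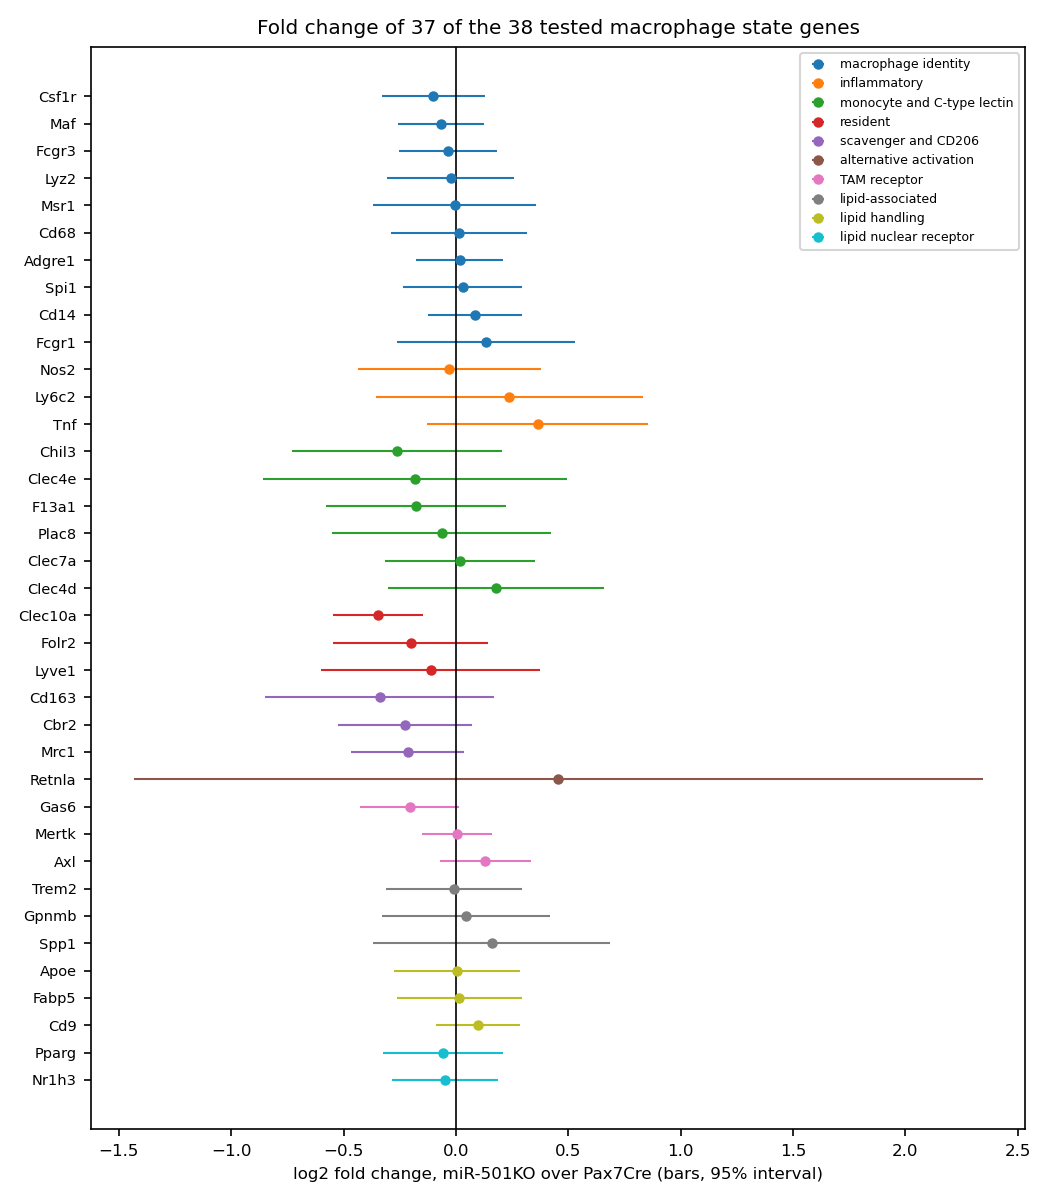
Log2 fold change of miR-501KO over Pax7Cre (x axis) for 37 of the 38 tested macrophage state genes (y axis), ordered and coloured by role, with 95% intervals from edgeR's quasi-likelihood fit. The interval of *Clec10a* lies below 0, from −0.55 to −0.14, and those of the other genes shown include 0.

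Levels of the 40 genes on day 6 spanned a wide range. Per kb of exon, *Apoe*, which encodes a lipid carrier, had a mean level of 2176 CPM per kb over the 10 mice, and *Lyz2*, the lysozyme of myeloid cells, had 2128 CPM per kb. The next levels were those of *Spp1* with 287 CPM per kb, the lysosomal marker *Cd68* with 247 CPM per kb and *Gpnmb* with 114 CPM per kb. These 5 genes were the members at or above 100 CPM per kb, and 13 members were under 5 CPM per kb. *Apoe* was 4644 ± 451 CPM in Pax7Cre and 4659 ± 380 CPM in miR-501KO mice, and *Lyz2* was 2822 ± 416 and 2778 ± 222 CPM. *Apoe* and *Spp1* are among the members also made by cells other than macrophages. The source of the reads was not tested for any of the 40 genes.

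**Figure D2:**
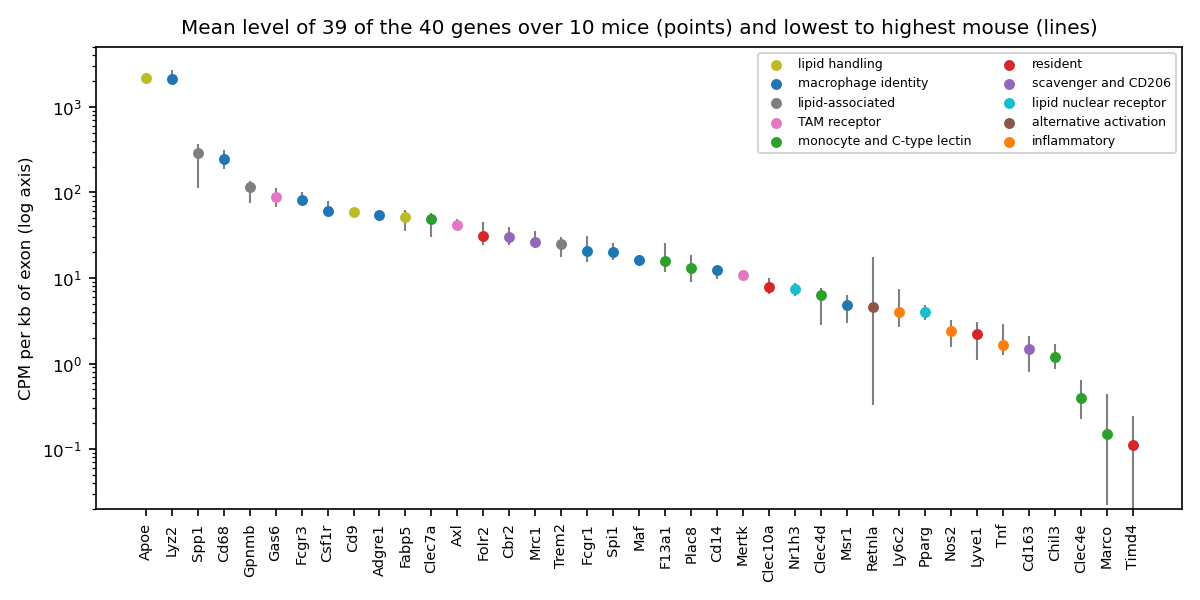
Mean level of 39 of the 40 macrophage state genes over 10 mice in CPM per kb of exon (points, log axis), with lines from the lowest to the highest mouse, coloured by role. *Apoe* and *Lyz2* lie above 2000 CPM per kb, while *Timd4* lies at 0.111 CPM per kb; a lowest value under the axis, as for *Timd4* at 0, is drawn at the lower edge.

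Of 10 identity genes, 5 were higher and 5 lower, with a median log2 fold change of 0.0042. *Csf1r*, the receptor for the growth factor that keeps macrophages alive, was 366 ± 55.6 CPM in Pax7Cre and 341 ± 19.5 CPM in miR-501KO mice. *Adgre1*, which encodes F4/80, was 175 ± 18.2 and 177 ± 13.4 CPM, and *Cd68* was 308 ± 65.2 and 312 ± 33.0 CPM. *Cd14*, a co-receptor for bacterial lipopolysaccharide, had a log2 fold change of 0.084, and the scavenger receptor *Msr1* had −0.0064. The Fc receptors *Fcgr1* and *Fcgr3* had 0.13 and −0.036, and without miR-501KO mouse 1 *Fcgr1* had −0.042. The transcription factors *Spi1* and *Maf* had 0.030 and −0.066. A separate list of 10 macrophage genes, which holds none of the 40, had 7 higher and 3 lower genes and a median of 0.020. Its most abundant gene, the protease gene *Ctss*, had a mean of 887 CPM.

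Of the inflammatory genes, *Ly6c2* and *Tnf* were higher and *Nos2* was lower in miR-501KO mice, with a median log2 fold change of 0.24. *Ly6c2*, which encodes the Ly6C antigen of inflammatory monocytes, lies at chr15:75108158-75111970 on the minus strand. It was 13.1, 14.9, 7.29, 7.54 and 7.54 CPM in Pax7Cre mice and 20.3, 10.4, 9.83, 7.52 and 11.0 CPM in miR-501KO mice. The highest value was that of miR-501KO mouse 1, and the other 4 miR-501KO mice lay within the range of the Pax7Cre mice. Between the genotypes the log2 fold change was 0.24 (95% interval −0.36 to 0.83), and without miR-501KO mouse 1 it was −0.051.

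*Tnf*, the gene for the cytokine TNF, lies at chr17:35199381-35202007 on the minus strand. It was 2.96, 2.16, 2.27, 2.25 and 2.15 CPM in Pax7Cre and 4.80, 3.40, 2.08, 2.33 and 2.54 CPM in miR-501KO mice. The miR-501KO mice 1 and 2 lay above all Pax7Cre mice and miR-501KO mouse 3 lay below them, so the groups overlapped. Its log2 fold change was 0.36 (95% interval −0.13 to 0.86, exact permutation p = 0.238), and without miR-501KO mouse 1 it was 0.13.

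*Nos2*, the inducible nitric oxide synthase, lies at chr11:78920787-78960254 on the plus strand. It was 9.58, 14.1, 6.87, 9.63 and 13.1 CPM in Pax7Cre and 9.37, 7.88, 9.95, 12.8 and 12.2 CPM in miR-501KO mice. All 5 miR-501KO mice lay within the Pax7Cre range. The log2 fold change was −0.030 (95% interval −0.44 to 0.38). Leaving out any of 4 mice, Pax7Cre mouse 2 or 5 or miR-501KO mouse 1 or 2, turned it above 0.

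*Ly6c2* had 4.00 CPM per kb, *Nos2* 2.39 CPM per kb and *Tnf* 1.64 CPM per kb, against 61.3 CPM per kb for *Csf1r* and, among the identity genes, a lowest level of 4.87 CPM per kb for *Msr1*. As a mean of log2 CPM centred on each gene, the 3 genes stood at 0.57 in miR-501KO mouse 1, the highest of the 10 mice, and at −0.43 in Pax7Cre mouse 3, the lowest. The adipocyte list was lowest in the same miR-501KO mouse 1, at −1.93 with a summed 223 CPM against 185 to 348 CPM over all mice, and its part in the inflammatory values was not tested.

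The other monocyte genes had 2 higher and 4 lower members of 6 tested, with a median log2 fold change of −0.12. *Clec7a*, which encodes the glucan receptor dectin-1, was the most abundant in CPM with a mean of 129 CPM and a log2 fold change of 0.019. The C-type lectin genes *Clec4d* and *Clec4e*, neighbours on chromosome 6, had 0.18 and −0.18. Leaving out Pax7Cre mouse 2 gave 0.0048 for *Clec4d*, and leaving out Pax7Cre mouse 3 gave −0.034 for *Clec4e*. *Chil3*, a chitinase-like gene, had −0.26 on 31 to 62 counts, *Plac8* had −0.064 and *F13a1*, the clotting factor XIII A chain, had −0.18. Without Pax7Cre mouse 4, that of *F13a1* was 0.019. *Marco*, a scavenger receptor, had 1 to 21 counts and reached 10 counts in 3 libraries, so it was not tested.

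The resident genes were lower in miR-501KO mice in 3 of 3 tested members, with a median log2 fold change of −0.20. *Clec10a*, which encodes the galactose-binding lectin CD301 (ENSMUSG00000000318), lies at chr11:70156197-70170834 on the plus strand. It was 28.3, 28.9, 26.6, 24.0 and 21.0 CPM in Pax7Cre and 18.9, 19.2, 20.5, 21.5 and 21.3 CPM in miR-501KO mice. The miR-501KO mice 1, 2 and 3 lay below all Pax7Cre mice, and the other 2 lay just above Pax7Cre mouse 5, so the groups overlapped.

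*Clec10a* averaged 25.8 ± 3.26 CPM in Pax7Cre and 20.3 ± 1.17 CPM in miR-501KO mice, a log2 fold change of −0.35 (SE 0.093, 95% interval −0.55 to −0.14). Its unadjusted p in edgeR's quasi-likelihood test was 0.00264, the rank 4 of 14410 genes, and its adjusted p after Benjamini-Hochberg was 1.00. The exact permutation p was 0.0238, where 0.00794 is the smallest that 5 mice against 5 can give. The log2 fold change lay between −0.41 and −0.30 in 18 alternative fits, with adjusted p in edgeR or DESeq2 between 0.983 and 1.00 and unadjusted p between 0.000350 and 0.0118. Of the 100-base windows of its longest transcript, 4.08% also occur in transcripts of another gene, mainly its paralog *Mgl2*, whose log2 fold change was −0.19 (exact permutation p = 0.127).

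*Folr2*, the folate receptor beta gene, lies at chr7:101839988-101857194 on the minus strand. It was 62.8, 39.4, 48.8, 69.9 and 37.6 CPM in Pax7Cre and 44.5, 50.6, 38.6, 44.2 and 47.1 CPM in miR-501KO mice. Pax7Cre mice 1 and 4 were the highest of the 10 mice, and all miR-501KO mice lay within the Pax7Cre range. Between the genotypes the log2 fold change was −0.20 (95% interval −0.55 to 0.14), and without Pax7Cre mouse 4 it was −0.068.

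*Lyve1*, the hyaluronan receptor gene, lies at chr7:110850607-110863239 on the minus strand. It was 8.51, 8.81, 5.81, 6.86 and 3.23 CPM in Pax7Cre and 6.24, 7.08, 4.91, 5.51 and 6.99 CPM in miR-501KO mice. Pax7Cre mouse 5 had the lowest value, and the miR-501KO mice lay within the Pax7Cre range. Its log2 fold change was −0.11 (95% interval −0.60 to 0.37), and without Pax7Cre mouse 2 it was 0.0029. *Lyve1* is also a gene of lymphatic endothelium, whose list had 2 higher and 3 lower genes of 5 tested with a median of −0.045. The mean of centred log2 CPM of that list pointed the other way, −0.16 ± 0.56 in Pax7Cre and 0.16 ± 0.49 in miR-501KO mice, with *Mmrn1* at 0 to 84 counts and a log2 fold change of 0.97. The part of lymphatic vessels in the *Lyve1* value was not tested. The most abundant gene of that list was *Pdpn*, with a mean of 42.8 CPM.

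*Timd4*, the phosphatidylserine receptor TIM4 gene, lies at chr11:46810800-46844332 on the plus strand. It had 2, 5, 10, 3 and 0 counts in Pax7Cre and 7, 7, 5, 8 and 4 counts in miR-501KO mice. A single library reached 10 counts, so the gene was left out of the main fit. Its mean was 0.200 CPM in Pax7Cre and 0.282 CPM in miR-501KO mice (exact permutation p = 0.238), the direction opposite to that of the 3 tested resident genes.

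Scavenger genes that resident macrophages also carry were likewise below 0 in 3 of 3 members, with a median log2 fold change of −0.23. *Mrc1*, the mannose receptor CD206, was 181 ± 33.0 CPM in Pax7Cre and 156 ± 9.89 CPM in miR-501KO mice (log2 fold change −0.22, exact permutation p = 0.151). *Cbr2*, a carbonyl reductase gene, was 42.6 ± 8.89 and 36.4 ± 4.81 CPM (−0.23). *Cd163*, the haemoglobin scavenger receptor, was 9.05 ± 1.84 and 7.16 ± 2.60 CPM (−0.34, 95% interval −0.85 to 0.17). The miR-501KO mice 1 and 2 had the lowest *Cd163*, at 4.48 and 4.29 CPM, and the other miR-501KO mice lay between 8.04 and 9.75 CPM. Without Pax7Cre mouse 4 the log2 fold change was −0.12 for *Mrc1* and −0.14 for *Cbr2*, and without miR-501KO mouse 2 it was −0.20 for *Cd163*. Markers of fibro-adipogenic progenitors were below 0 in 6 of 7 genes with a median of −0.078, those of endothelium in 6 of 6 with −0.060, and those of adipocytes in 5 of 5 with −0.27. In each of these lists, 0 genes passed an unadjusted p under 0.05 in edgeR. Their most abundant genes were *Col1a1*, *Cdh5* and *Fabp4*, with means of 7274, 232 and 256 CPM. The summed CPM of these lists was 9101 ± 1599 in Pax7Cre and 9058 ± 776 in miR-501KO mice for fibro-adipogenic progenitors. For endothelium it was 677 ± 62.6 and 656 ± 57.0, and for adipocytes 295 ± 66.1 and 266 ± 41.5. Whether these cells had a part in the resident or scavenger gene values was not tested.

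*Retnla*, an alternative activation gene for the secreted protein RELMα, had 36, 151, 14, 26 and 4 counts in Pax7Cre and 37, 37, 10, 201 and 40 counts in miR-501KO mice. Pax7Cre mouse 2 and miR-501KO mouse 4 stood far above the others. Between the genotypes the log2 fold change was 0.45 (95% interval −1.43 to 2.34), and it was 1.76 without Pax7Cre mouse 2 and −0.77 without miR-501KO mouse 4.

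Among the TAM receptor genes, which take part in the uptake of dying cells, *Gas6*, the ligand, was 239 ± 27.8 CPM in Pax7Cre and 207 ± 21.8 CPM in miR-501KO mice. In edgeR its log2 fold change was −0.21 (95% interval −0.43 to 0.02, p = 0.0654), and its exact permutation p was 0.0397. *Gas6* was highest in Pax7Cre mouse 4 at 288 CPM and lowest in miR-501KO mouse 1 at 171 CPM, and the groups overlapped. Leaving out Pax7Cre mouse 4 gave a log2 fold change of −0.13. Of the receptors, *Axl* had a log2 fold change of 0.13 (201 ± 19.3 and 220 ± 20.4 CPM) and *Mertk* 0.0038 (47.2 ± 3.10 and 47.3 ± 3.28 CPM).

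Of the lipid-associated genes, *Spp1* and *Gpnmb* were higher and *Trem2* was lower in miR-501KO mice, with a median log2 fold change of 0.044. *Trem2*, a lipid receptor gene, lies at chr17:48346401-48354147 on the plus strand. It was 148, 87.6, 116, 142 and 123 CPM in Pax7Cre and 127, 149, 101, 114 and 122 CPM in miR-501KO mice. Pax7Cre mouse 2 was the lowest of the 10, miR-501KO mouse 2 the highest, and the groups overlapped. Its log2 fold change was −0.0091 (95% interval −0.31 to 0.29).

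*Gpnmb*, a lysosomal glycoprotein gene, lies at chr6:49036546-49070929 on the plus strand. It was 869.7, 489, 546, 888 and 873 CPM in Pax7Cre and 790.0, 849.5, 658, 711 and 771 CPM in miR-501KO mice. Pax7Cre mice 2 and 3 were the lowest, the other 3 Pax7Cre mice were the highest, and all miR-501KO mice lay between them. The log2 fold change was 0.044 (95% interval −0.33 to 0.42), and without Pax7Cre mouse 2 it was −0.073.

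*Spp1*, which encodes osteopontin, lies at chr5:104435118-104441050 on the plus strand. It was 553, 186, 469, 607 and 417 CPM in Pax7Cre and 601, 525, 404, 491 and 470 CPM in miR-501KO mice. Pax7Cre mouse 2 stood below all others, and the miR-501KO mice lay within the Pax7Cre range. Between the genotypes the log2 fold change was 0.16 (95% interval −0.37 to 0.69), and without Pax7Cre mouse 2 it was −0.040. *Spp1* shares 309 exon bases with *Gm42793* on the same strand, so reads there could have been counted for either gene or for neither.

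The summed CPM of the 3 lipid-associated genes was 762 in Pax7Cre mouse 2 and between 1131 and 1636 in the other 9 mice. The summed CPM of the 9 mature fiber genes was 54602, 93748, 54399, 37136 and 63342 in Pax7Cre and 58592, 60104, 63651, 73708 and 64804 in miR-501KO mice. Pax7Cre mouse 2 thus had the lowest lipid-associated and the highest mature fiber values, and also the highest share of mitochondrial counts, 14.0%. The mature fiber list, led by *Mylpf*, had 8 higher and 1 lower gene and a median log2 fold change of 0.073. With the mature fiber score as a covariate, the log2 fold change of *Spp1* was 0.44 (unadjusted p = 0.00506, adjusted p = 0.983 with Benjamini-Hochberg in edgeR). At an unadjusted p, this fit also gave *Clec4d* as higher, and it gave 399 higher genes, 2.77%, of all 14410, against 55, 0.382%, in the fit without the covariate. With the same covariate the log2 fold change was 0.15 for *Gpnmb* and 0.089 for *Trem2*, and the group median was 0.15 in place of 0.044. The resident median was −0.13 in place of −0.20, with −0.072 for *Folr2*, and *Mrc1* and *Cbr2* had −0.13 and −0.14. The score was taken from the same libraries, and 8 of its 9 genes were higher in miR-501KO mice, so it may itself carry the genotype difference. The part of mature fibers in these values was not tested.

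Among the other lipid genes, *Cd9*, a tetraspanin gene, had a log2 fold change of 0.098, *Fabp5*, a fatty acid binding protein gene, 0.016, and *Apoe* 0.0047. The nuclear receptor genes *Pparg* and *Nr1h3*, which respond to lipids, had −0.058 and −0.048.

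Set side by side, the median log2 fold changes were 0.24 for the 3 inflammatory genes, −0.20 for the 3 tested resident genes and 0.044 for the 3 lipid-associated genes. With 1 mouse left out they ranged from 0.0075 (without miR-501KO mouse 1) to 0.36 for inflammatory, from −0.30 to −0.10 (without Pax7Cre mouse 4) for resident and from −0.073 to 0.12 for lipid-associated genes. As the mean of centred log2 CPM, the resident genes were at 0.090 ± 0.33 in Pax7Cre and −0.090 ± 0.12 in miR-501KO mice, and the inflammatory genes at −0.086 ± 0.27 and 0.086 ± 0.29. The lipid-associated genes were at −0.057 ± 0.44 and 0.057 ± 0.17. The resident minus inflammatory value was 0.25, −0.043, 0.49, 0.52 and −0.34 in Pax7Cre and −0.68, 0.011, −0.11, −0.015 and −0.079 in miR-501KO mice. The Pax7Cre mice 1, 3 and 4 were above all miR-501KO mice, and Pax7Cre mice 2 and 5 were within their range. The resident minus lipid-associated value was 0.15 ± 0.54 in Pax7Cre and −0.15 ± 0.12 in miR-501KO mice, with Pax7Cre mouse 2 the highest at 0.97. The inflammatory minus lipid-associated value was −0.028 ± 0.61 and 0.028 ± 0.23, again with Pax7Cre mouse 2 the highest at 1.02. These differences between gene groups were not tested, since the groups were chosen with earlier results known.

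**Figure D3:**
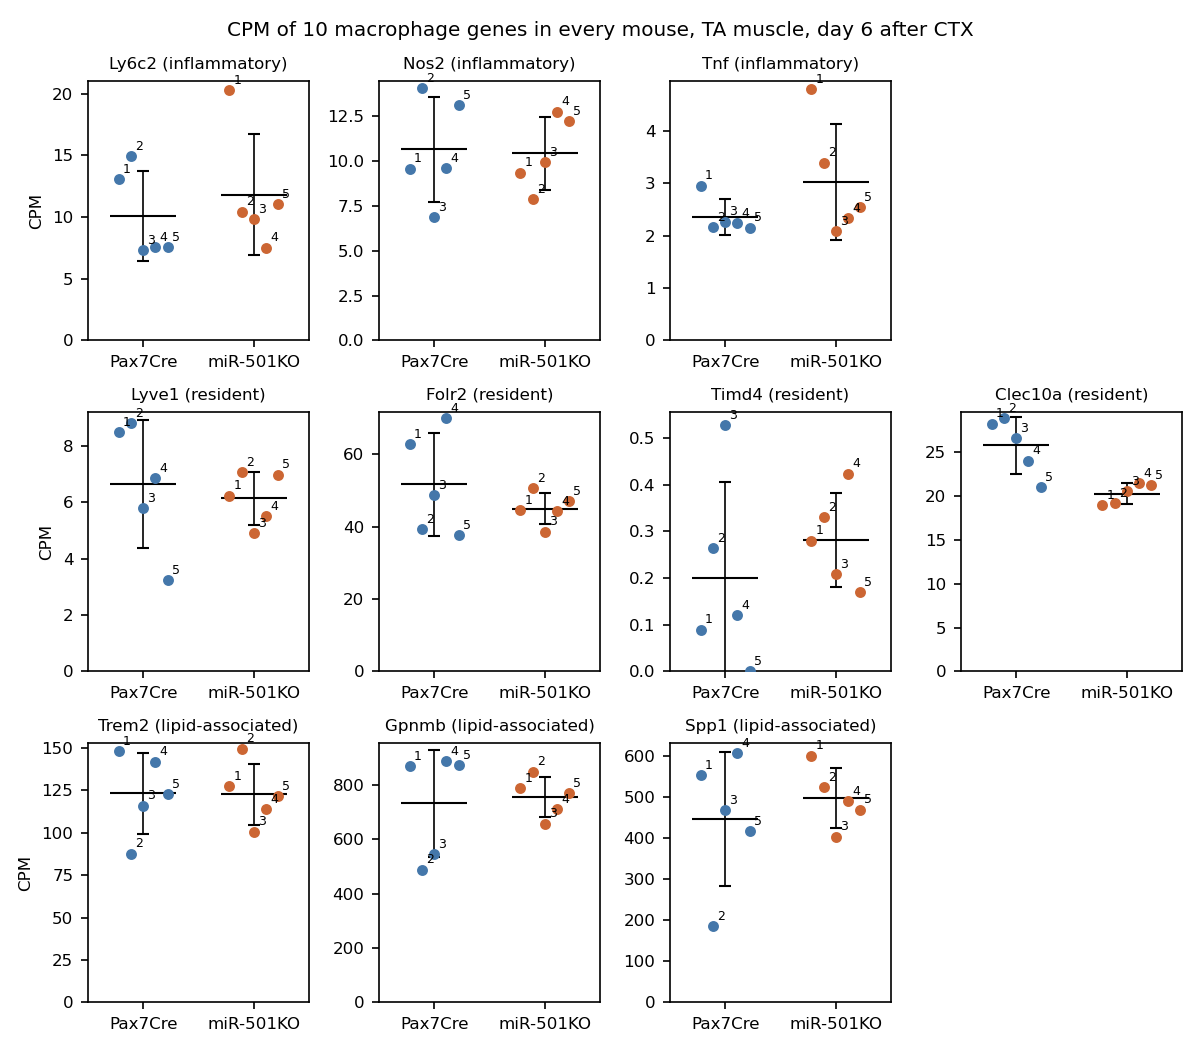
CPM (y axis) of the inflammatory, resident and lipid-associated genes in each mouse (points with the mouse number), with the mean and SD of 5 mice per genotype in black. *Clec10a* lies between 21.0 and 28.9 CPM in Pax7Cre and between 18.9 and 21.5 CPM in miR-501KO mice, and Pax7Cre mouse 2 is the lowest for *Trem2*, *Gpnmb* and *Spp1*.

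The spread between mice was larger in the Pax7Cre group for 29 of the 38 genes, 76.3%, close to the 79.2% of all genes tested. Pax7Cre mouse 2 had the lowest value for 12 of the 38 genes, 31.6%, against 21.8% of all genes. Pax7Cre mouse 4 had the highest value for 12 of the 38 genes, 31.6%, against 18.1% of all genes, and it was also the mouse with the lowest mature fiber values. Pax7Cre mouse 5 had the lowest value for 7 genes, 18.4%, against 6.35% of all genes. The highest value was that of miR-501KO mouse 1 for 8 genes, 21.1%, against 7.67%, and that of Pax7Cre mouse 1 for 7 genes, 18.4%, against 8.93%.

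Among 51 further macrophage state genes from a list that shares none of the 40, 47 were tested, of which 16 were higher and 31 lower, with a median log2 fold change of −0.047. The most abundant was *Fn1*, with a mean of 3551 CPM, and which cells the reads of these genes came from was not tested. At an unadjusted p under 0.05, 1 of the 47 was higher, *Ptgs2*, which encodes the prostaglandin synthase COX-2, against 0.382% of all genes, and 0 were lower, against 0.666%. *Ptgs2* was 2.37, 1.37, 2.11, 2.77 and 2.06 CPM in Pax7Cre and 2.08, 3.11, 4.41, 3.23 and 2.63 CPM in miR-501KO mice. The miR-501KO mice 2, 3 and 4 lay above all Pax7Cre mice. On the log2 scale the difference was 0.52 (SE 0.23, unadjusted p = 0.0380 and Benjamini-Hochberg adjusted p = 1.00 in edgeR, exact permutation p = 0.0714).

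Dendritic cells share C-type lectins with resident macrophages, and 5 of their 8 markers were higher and 3 lower, with a median log2 fold change of 0.018. Their most abundant marker was *Zbtb46*, with a mean of 12.6 CPM. *Cd209a*, a lectin gene of monocyte-derived dendritic cells, was 11.9, 13.8, 12.0, 9.87 and 9.06 CPM in Pax7Cre and 6.76, 9.11, 7.33, 10.3 and 10.2 CPM in miR-501KO mice. The miR-501KO mice 1 and 3 lay below all Pax7Cre mice, and the groups overlapped. On the log2 scale the difference was −0.37 (SE 0.15, unadjusted p = 0.0256 and Benjamini-Hochberg adjusted p = 1.00 in edgeR, exact permutation p = 0.0714). The part of dendritic cells in the *Clec10a* value was not tested.

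Of the 11 neutrophil markers, *Ly6g* had 0 or 1 count in every library and *Elane* 0 to 2 counts. The most abundant were *Csf3r*, with a mean of 31.0 CPM, and *Mmp9*, with 15.5 CPM. The other tested markers, *S100a8*, *S100a9* and *Retnlg*, had means of 0.813, 0.822 and 0.788 CPM. Of the 5 tested genes 1 was higher and 4 were lower. Of the osteoclast list, which shares lysosomal genes with macrophages, 3 of 5 genes were tested and 3 were lower, with *Ctsk* the most abundant at a mean of 129 CPM. Of the genes of regenerating fibers, 4 were higher and 2 lower, with a median log2 fold change of 0.030 and *Myh8* the most abundant at 1415 CPM.

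The sequence removed by the deletion is shown because its seed defines the sites that could be counted in the macrophage transcripts. Mature miR-501-3p from RefSeq (GRCm38.p6, chrX:7241270-7241291, minus strand) is printed with bases 2 to 8, the seed, in capitals.
mmu-miR-501-3p: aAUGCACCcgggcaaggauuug
The complement of the seed, GGTGCAT, was searched on the transcript strand in every annotated 3′ untranslated region of GENCODE M21. It occurred in 2 of the 40 genes, 5%, against 8.21% of 14119 tested genes with such a region. The sites, in capitals, lie in the transcripts of *Maf* on chromosome 8 and *F13a1* on chromosome 13.
Maf: tcaccagaGGTGCATgggaacat
F13a1: tagtttatGGTGCATtttatagg
The log2 fold changes were −0.066 for *Maf* and −0.18 for *F13a1*, with 95% intervals that included 0, and with the mature fiber covariate *Maf* had −0.064 and *F13a1* −0.0049. Without Pax7Cre mouse 4, *Maf* had −0.019 and *F13a1* turned to 0.019. A match is a description of the letters, and binding was not measured.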

How the data were processed

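RNA from TA muscle was made into TruSeq stranded mRNA libraries and read on an Illumina NovaSeq. The authors deposited raw counts per Ensembl gene for each mouse, made with STAR and featureCounts on GRCm38.p5 per the labels; strand setting and handling of reads that match several genes are not given in the sources used here. Of 25700 genes, 25664 matched GENCODE M21, which gave symbols, positions and exon lengths. Low genes were dropped with filterByExpr (at least 10 counts, at least 15 in total), which left 14410, and their TMM factors and the genotype comparison by quasi-likelihood came from edgeR 4.0.16 under R 4.3.3, with Benjamini-Hochberg adjustment over all of them. Single genes also had an exact two-sided permutation test on log2 CPM (prior count 0.5). The edgeR and DESeq2 fits were tested on simulated data with known changes and a dispersion common to all genes. Members, lists and groups were chosen with earlier results of these data known, so lists have no test. Of the members, 1 is not reported here and the others are named; the 10 compared genes and members or listed genes with an unadjusted p under 0.05 are given by mouse, as is *Retnla*, chosen after its values were seen. Alternatives were DESeq2 1.42.0, its size factors, other filters, the newer quasi-likelihood form, macrophage content and mature fiber covariates, a replicate block and leaving out each mouse. Totals were 18609222 to 24753258 counts. Mice of a genotype differed beyond counting noise (lowest chi-square over its degrees of freedom, 9.51).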

Additional observations from a re-analysis of the deposited data

Results flagged for a closer look

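Among the 38 tested macrophage genes, 76 groups of 5 mice were screened for single distant values, by the gap to its nearest neighbour over the range of the group. Such a value was found in 6 groups, and chance alone gives about 1 in 20, or 3.8 of 76. *Ly6c2* was 20.3 CPM in miR-501KO mouse 1, against 7.52 to 11.0 CPM in the other miR-501KO mice. *Tnf* was 2.96 CPM in Pax7Cre mouse 1, against 2.15 to 2.27 CPM in the others of its group. *Retnla* was 7.97 CPM in Pax7Cre mouse 2, against 0.196 to 1.61 CPM, and 10.6 CPM in miR-501KO mouse 4, against 0.416 to 1.75 CPM. *Gas6* was 288 CPM in Pax7Cre mouse 4, against 221 to 234 CPM. *Apoe* was 4014 CPM in miR-501KO mouse 4, against 4694 to 4944 CPM, the single low value of the 6.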

How the results depend on the processing

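With 0 genes at an adjusted p of 0.05 in edgeR or DESeq2 under all 18 alternatives, none of the 38 macrophage genes changed its side of that threshold. Of 666 fold changes of 37 genes under these alternatives, 605 kept the direction and 61 turned it, and 15 of the 37 genes, *Clec10a* among them, kept it under all 18; the cause was not tested. At an unadjusted p under 0.05, DESeq2 gave 2 lower macrophage genes, against 0.680% of all genes, and the mature fiber covariate gave 2 higher, *Clec4d* and *Spp1*, against 2.77%. Leaving out 1 mouse gave 0 to 1 higher genes and 1 to 3 lower; *Retnla* was the higher gene without Pax7Cre mouse 2, where *Mrc1* joined *Clec10a* as lower, against 1.84% higher and 1.28% lower of all genes in that fit, and without Pax7Cre mouse 5 *Mrc1* and *Cbr2* did, against 0.792% lower. Over these fits the median log2 fold change was 0.0075 to 0.36 for inflammatory, −0.30 to −0.10 for resident and −0.073 to 0.12 for lipid-associated genes, the last below 0 without Pax7Cre mouse 2, Pax7Cre mouse 3 or miR-501KO mouse 2. For all 38 genes it was −0.056 to 0.056, and it was 0.0012 with the replicate block and 0.011 with the mature fiber covariate.

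With the mature fiber covariate, log2 fold changes turned to 0.0049 for *Lyz2*, 0.15 for *Msr1*, −0.026 for *Clec7a* and 0.089 for *Trem2*, *F13a1* went from −0.18 to −0.0049, and the medians were 0.21 for inflammatory, −0.13 for resident and 0.15 for lipid-associated genes. With the mouse number as a replicate block, the log2 fold change of *Msr1* turned to 0.031. With the macrophage content covariate, that of *Apoe* turned to −0.0063. At an unadjusted p under 0.05 the comparison gave 55 higher and 96 lower genes of all tested, against 87 and 102 with the replicate block, 153 and 159 with no filter, 399 and 281 with the mature fiber covariate, and 39 to 267 higher and 59 to 242 lower when 1 mouse was left out. The deviations of same-numbered mice correlated at 0.32, −0.15, 0.15, −0.28 and 0.19 for mice 1 to 5. Mice 1 and 3 alone matched best with their own number, so a pairing was not seen for every number.

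Leaving out 1 mouse at a time, the log2 fold change turned for some mice and ranged from −0.030 to 0.055 for *Adgre1*, −0.072 to 0.11 for *Cd68*, −0.067 to 0.070 for *Lyz2*, −0.042 to 0.26 for *Fcgr1*, −0.084 to 0.046 for *Fcgr3*, −0.14 to 0.10 for *Msr1*, −0.037 to 0.13 for *Spi1* and −0.051 to 0.42 for *Ly6c2*. It ranged from −0.15 to 0.086 for *Nos2*, −0.25 to 0.080 for *Plac8*, −0.29 to 0.019 for *F13a1*, −0.11 to 0.086 for *Clec7a*, −0.29 to 0.0029 for *Lyve1*, −0.77 to 1.76 for *Retnla* and −0.027 to 0.039 for *Mertk*. The range was −0.11 to 0.065 for *Trem2*, −0.073 to 0.12 for *Gpnmb*, −0.040 to 0.29 for *Spp1*, −0.026 to 0.056 for *Apoe*, −0.090 to 0.10 for *Fabp5*, −0.13 to 0.019 for *Pparg* and −0.11 to 0.013 for *Nr1h3*. The direction stayed in every such fit, with a range of −0.15 to −0.0081 for *Csf1r*, 0.018 to 0.14 for *Cd14*, −0.12 to −0.019 for *Maf*, 0.13 to 0.48 for *Tnf*, −0.37 to −0.15 for *Chil3*, 0.0048 to 0.29 for *Clec4d*, −0.48 to −0.034 for *Clec4e*, −0.30 to −0.068 for *Folr2*, −0.41 to −0.30 for *Clec10a*, −0.28 to −0.12 for *Mrc1*, −0.48 to −0.20 for *Cd163*, −0.31 to −0.14 for *Cbr2*, 0.092 to 0.18 for *Axl*, −0.24 to −0.13 for *Gas6* and 0.059 to 0.15 for *Cd9*.

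Depth limits *Timd4* and *Marco*, and counts under 100 in most mice limit *Chil3*, *Clec4e*, *Tnf* and *Retnla*. Values rest on 5 mice per genotype and 1 time point. On the opposite strand, *Folr2* shares 975 of its 1546 exon bases with *Gm10602*, *Csf1r* 873 with *Hmgxb3*, *Maf* 440 with *Gm15655*, *Cd9* 218 with *Gm26728*, *F13a1* 74 with *Gm30489* and *Gas6* 34 with *Tmem255b*, and reads there cannot be told apart if the counting ignored strand. Some 100-base windows of the longest transcript occur also in transcripts of other genes, given here with the gene that shares most in brackets. Their share was 3.60% in *Ly6c2* (*Ly6c1*), 5.82% in *Spp1* (*Gm42793*), 5.42% in *Chil3* (*Chil4*), 3.53% in *Fcgr3* (*Fcgr2b*), 1.97% in *Lyz2* (*Lyz1*) and 7.02% in *Cbr2*.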
